A study of Mus musculus with 18 samples.

Results

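Solute carriers are the membrane proteins that move amino acids, sugars, ions, metals and metabolites into and out of cells and organelles, and their genes carry symbols that begin with *Slc* and a family number. Here 143 such genes were followed in the 3 cell types of the mouse glomerulus, the filter of the kidney, on 18 Affymetrix Mouse Gene ST arrays. The members were chosen by the measured signal itself: a gene symbol beginning with *Slc* and a digit, together with at least 1 array among the 18 where the signal reached 100. Where a gene had several transcript clusters, the probe sets by which the array reads a gene, the one with the highest mean signal was taken. The array carries 387 transcript clusters with such a symbol, for 349 symbols, among 28856 transcript clusters in all, of which 13523 reached 100 in at least 1 array. With a signal of 200 in place of 100, 62 members would have been kept.

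Cells came from mice 5 weeks of age and were purified by FACS on a GFP reporter, *Meis1-GFP* for mesangial cells, *Tie2-GFP* for endothelial cells and another for podocytes, so that every array of a cell type, mutant or control, carries the same reporter. Mutant mice were homozygous for the *Cd2ap* allele tm1Shaw (CD2AP-/-), a mouse model of focal segmental glomerulosclerosis in which every cell of the body carries the mutation. Controls are labelled wild type, although the sample titles of the mesangial ones say control, and all are called wild type here. Each of the 6 groups holds 3 arrays, called A, B and C by the order of their columns, which says nothing beyond identity. The series record calls them biological triplicates without saying how many animals each array holds, and the column names write the mesangial controls as +:-, so whether these controls were heterozygous is not known.

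As background, the carriers divide by what they move. Families such as *Slc7*, *Slc38* and *Slc43* serve amino acids and related solutes, *Slc2* glucose, *Slc4*, *Slc9*, *Slc12* and *Slc26* sodium, chloride, bicarbonate and protons, and *Slc30*, *Slc39* and *Slc41* zinc and magnesium. *Slc25* is the large family of the mitochondrial inner membrane and *Slc35* brings nucleotide sugars into the Golgi and endoplasmic reticulum. In the kidney the best known carriers are those of the tubule, which reclaim filtered solutes, while the cells of the glomerulus use carriers for their own volume, pH, amino acid and metal balance.

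The values just inside and just outside the signal minimum lay close together. *Slc45a3*, *Slc41a3*, *Slc25a29*, *Slc35b2* and *Slc25a10* were kept with highest signals of 100.2, 101, 101.1, 101.8 and 102. *Slc36a1*, *Slc2a10*, *Slc16a3*, *Slc35c2* and *Slc2a9* were left out with 99.2, 99.0, 98.1, 97.5 and 97.4. At least 100 was reached in all 18 arrays by 49 members, in 4 to 17 arrays by 68, in 2 or 3 arrays by 14 and in 1 array only by 12. Of those 12, 6 reached it in a podocyte array labelled mutant, 5 of them in array C, where 32 of the 143 members also had their highest signal. A signal of 500 was reached by 18 members and 1000 by 7.

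Each group was checked against the targeted gene and against marker genes. *Cd2ap* gave 819, 870.4 and 797 in mesangial arrays labelled mutant and 922, 1037 and 1123 in wild type arrays, 1512, 1503 and 1478 and 2108, 1670.4 and 1546 in podocytes, and 891, 966 and 920.4 and 839.8, 859 and 757 in endothelial cells. In endothelial cells it was thus no lower with the mutant label, and where its probes lie relative to the mutation was not checked, so every direction below rests on the labels. Signals of 10 podocyte markers summed to 15719 to 17849 in wild type podocytes and 14219 to 16421 in those labelled mutant, and those of 10 endothelial markers to 18335 to 19674 and 19851 to 20566 in endothelial cells. The 10 mesangial markers summed to 10156 to 11202 in wild type mesangial arrays and 6869 to 8057 in those labelled mutant. Wild type mesangial array C stands apart: its podocyte markers summed to 4199, against 1070.1 and 1222 in arrays A and B, its endothelial markers to 9467, against 3546 and 3969.5, and its proximal tubule markers to 1811, against 439 and 460.2. The proximal tubule list does not measure tubule content alone. In endothelial cells it summed to 1579 to 1733 in wild type arrays and 1303 to 1607 in arrays labelled mutant. *Cyp4b1* of that list gave 611 to 953 there. In podocytes the endothelial markers summed to 5010.3 to 6741 in wild type arrays and 929.8 to 3108 in arrays labelled mutant. The part of other cells in the results below was not tested, and values without mesangial array C are given beside the mesangial genotype results. In sorted bulk samples, fewer cells of a type and less RNA per cell cannot be told apart.

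The 5 brightest members of the 3 cell types overlapped but were not the same. *Slc6a6* and *Slc44a1* were among them in all 3. *Slc12a2* was among them in mesangial cells and podocytes only, and *Slc9a3r2* in podocytes and endothelial cells only. *Slc12a2*, the sodium, potassium and chloride cotransporter NKCC1, had 3086 ± 459 (SD, n = 3) in wild type mesangial cells, 1099 ± 129 in podocytes and 525 ± 26.6 in endothelial cells. *Slc6a6*, the taurine transporter, was called between no pair of the 3 cell types in wild type arrays, at 1143 ± 143, 1029 ± 152 and 1174 ± 59.5. Also among the 5 brightest in at least 1 cell type were *Slc44a1*, a choline transporter-like protein, at 1336 ± 27.9, 748 ± 49.1 and 754 ± 115, and *Slc25a4*, the mitochondrial exchanger of ADP and ATP, at 938 ± 13.4, 728 ± 28.8 and 674 ± 48.8. *Slc9a3r2*, which is a scaffold protein that binds the sodium and proton exchanger NHE3 and not a carrier, had 605 ± 251, 941 ± 48.4 and 1564 ± 85.05. The signals of different transcript clusters come from different probes and are not scaled for length, so the order of genes within a cell type is an order of brightness only.

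**Figure D1:**
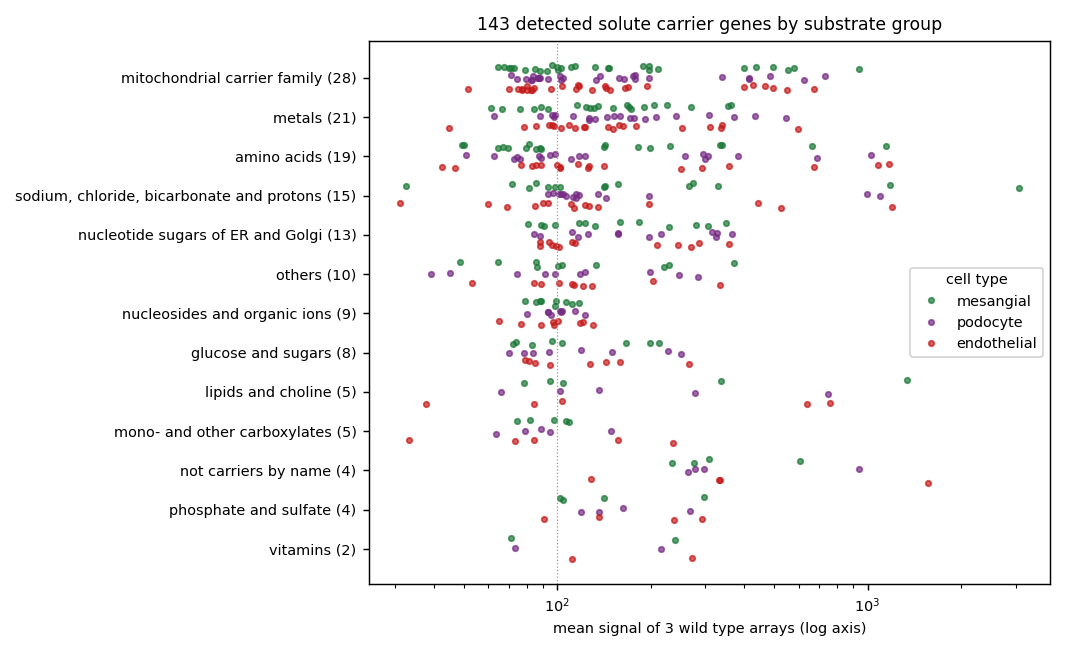
Mean signal of the 3 wild type arrays (log axis) for each of the 143 members in mesangial cells, podocytes and endothelial cells, by substrate group with the number of members in brackets. Most members lie between 50 and 500 in every group, and *Slc12a2* in mesangial cells lies farthest to the right.

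In all, 10 members marked 1 cell type against both others, at an adjusted p under 0.05 from limma and a fold change over 2, in the 9 wild type arrays and again in the 9 arrays labelled mutant, of 123 tested in both and against 6.28% of all transcript clusters. They were 4 for mesangial cells (background 1.76%), 3 for podocytes (background 1.95%) and 3 for endothelial cells (background 2.58%). In wild type arrays 3 of the 10 reached the signal minimum in no other cell type, and in arrays labelled mutant 5 did, so these could be tested only because they were bright in 1 cell type. Where all arrays of the dimmer group lay below 100, the fold is given as a bound, with the dimmer arrays set to 100, beside the fitted value. The 9 described here are *Slc8a1*, *Slc7a8*, *Slc12a2* and *Slc4a7* for mesangial cells, *Slc38a4*, *Slc41a2* and *Slc26a7* for podocytes, and *Slc26a10* and *Slc39a10* for endothelial cells. The wild type and mutant arrays are different samples, so the second comparison is a repeat of the first.

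Mesangial cells were set apart by carriers of calcium, chloride, bicarbonate and neutral amino acids. *Slc8a1*, the sodium and calcium exchanger NCX1 of contractile cells, had signals of 320.4, 391 and 279 in wild type mesangial arrays, 99.2, 105 and 75.4 in podocytes and 67.4, 53.7 and 58.6 in endothelial cells. The mesangial arrays lay above all others, 3.54-fold higher than podocytes (adjusted p = 4.42e-05) and at least 3.27-fold higher than endothelial cells, or 5.48-fold as fitted (adjusted p = 3.92e-06). *Slc7a8*, the light subunit LAT2 of an exchanger of neutral amino acids, gave 280.5, 383 and 359 in wild type mesangial cells, 112, 99.3 and 84.98 in podocytes and 42.5, 42.99 and 42.03 in endothelial cells. Here too no array of another cell type reached the mesangial level, and the differences were 3.44-fold (adjusted p = 2e-05) and at least 3.38-fold, or 7.94-fold as fitted (adjusted p = 2.78e-07). For *Slc12a2* the mesangial arrays gave 3460.1, 3224 and 2573, the podocyte arrays 1179, 1167 and 951 and the endothelial arrays 548, 496 and 532. The mesangial level was 2.8-fold (adjusted p = 4.06e-05) and 5.83-fold higher (adjusted p = 6.45e-07), and podocytes in turn lay 2.08-fold above endothelial cells (adjusted p = 0.000196). *Slc4a7*, the sodium and bicarbonate cotransporter NBCn1, had 244, 316 and 235 in mesangial cells, 125, 93.7 and 93.8 in podocytes and 112, 105 and 115 in endothelial cells, a difference of 2.54-fold (adjusted p = 0.000126) and 2.38-fold (adjusted p = 0.000174). In arrays labelled mutant the same genes were higher in mesangial cells than in podocytes by at least 2.81-fold for *Slc8a1* and at least 1.46-fold for *Slc7a8*, and by 3.46-fold for *Slc12a2* and 3.64-fold for *Slc4a7*.

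Podocytes were set apart by carriers of amino acids, magnesium and anions. *Slc38a4*, the system A amino acid transporter SNAT4, gave 275, 379.5 and 497 in wild type podocytes, 46.7, 45.6 and 56.02 in mesangial cells and 45.7, 47.9 and 47.4 in endothelial cells. All mesangial and endothelial arrays stayed below the signal minimum, and the podocyte level was at least 3.73-fold higher than either, or 7.58-fold (adjusted p = 1.12e-05) and 7.94-fold as fitted (adjusted p = 3.31e-06). *Slc41a2*, a magnesium transporter, had 382, 306 and 429 in podocytes, 47.8, 51.97 and 83.4 in mesangial cells and 48.5, 41.3 and 44.6 in endothelial cells, at least 3.69-fold higher than either, or 6.23-fold (adjusted p = 2.13e-05) and 8.24-fold as fitted (adjusted p = 5.18e-06). Its highest wild type mesangial value fell in array C, the array that also carries podocyte markers. *Slc26a7*, an anion exchanger and chloride channel, was dimmer, at 104, 156 and 148 in podocytes, with 29.2, 31.5 and 37.03 in mesangial cells and 30.9, 31.8 and 30.9 in endothelial cells, a difference of at least 1.34-fold, or 4.12-fold (adjusted p = 1.96e-05) and 4.29-fold as fitted (adjusted p = 8.7e-06). In arrays labelled mutant the difference from mesangial cells was at least 1.89-fold for *Slc38a4* and 6.46-fold for *Slc41a2*. The mean of *Slc26a7* in podocytes labelled mutant lay below the minimum itself, so no fold is given. *Slc31a2*, related to the copper transporter CTR1, was called for podocytes in wild type arrays only, where it had 579, 475 and 583 against 208, 235 and 235 in mesangial and 265, 249.7 and 240.2 in endothelial arrays. In podocytes labelled mutant it gave 438, 291 and 574, and podocyte array B then lay within the range of the endothelial arrays, 299, 269 and 298.

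Endothelial cells were set apart by a zinc importer and by a transcript cluster that a member of the anion exchanger family shares with another gene. The transcript cluster of *Slc26a10* also carries the symbol *B4galnt1*, and which of these genes gives the signal was not tested. It had 320.2, 518 and 491 in wild type endothelial arrays, 82.8, 66.3 and 107 in mesangial and 139, 118 and 80.7 in podocyte arrays. It was 5.17-fold higher than in mesangial cells (adjusted p = 9.97e-05) and 3.95-fold higher than in podocytes (adjusted p = 0.000251). *Slc39a10*, the zinc importer, had 639, 598 and 553 in endothelial, 215, 248 and 344 in mesangial and 268, 257 and 198 in podocyte arrays, 2.26-fold (adjusted p = 0.000805) and 2.49-fold higher (adjusted p = 0.000323). For both genes every wild type endothelial array lay above every other wild type array, and within mesangial cells the highest value was in array C, whose endothelial markers were raised. *Slc43a3*, a transporter of purine nucleobases, was called for endothelial cells in wild type arrays only, at 1104, 1087 and 1056, against 243, 298 and 463 in mesangial and 269.8, 345 and 304 in podocyte arrays. *Slc30a1*, the zinc exporter of the plasma membrane, *Slc38a1*, an amino acid transporter of system A, and *Slc25a30*, a mitochondrial carrier, were called for endothelial cells in arrays labelled mutant only, with 416, 412 and 403, 119, 143 and 124 and 176, 182 and 135. Of the 5 genes called in 1 genotype only, *Slc30a1* alone had a genotype effect that differed between cell types at an adjusted p under 0.05, as given further on.

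**Figure D2:**
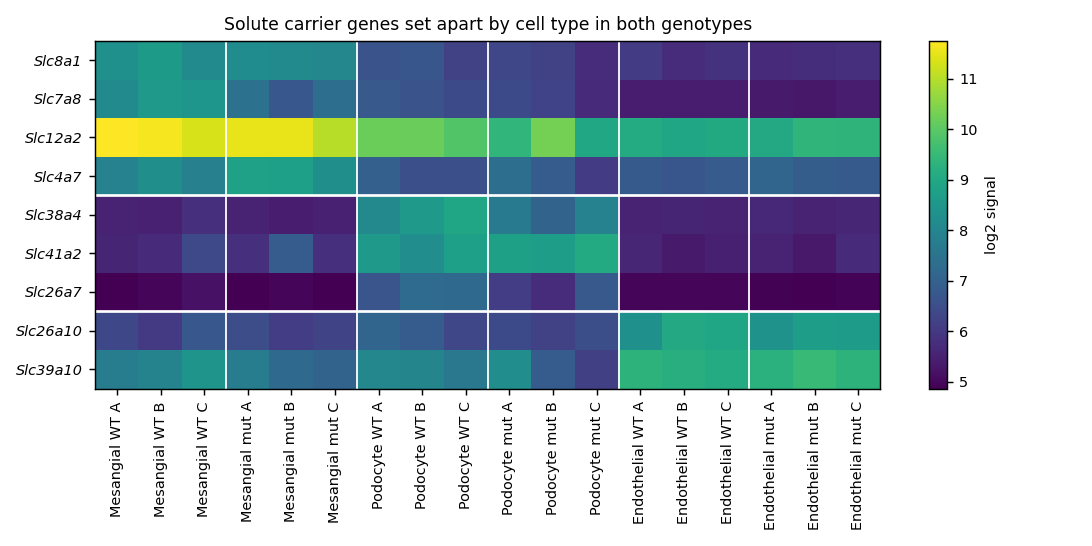
Log2 signal (colour) of 9 members set apart by cell type in both genotypes, 1 row per gene and 1 column per array. The mesangial block (*Slc8a1* to *Slc4a7*), the podocyte block (*Slc38a4* to *Slc26a7*) and the endothelial block (*Slc26a10* and *Slc39a10*) are each brighter in that cell type than in the other cell types, in wild type and in mutant arrays, with *Slc26a7* dim in the mutant podocyte arrays, and wild type mesangial array C is brighter than A and B in the endothelial block.

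Over all tested members, 8 of 129 differed between wild type podocytes and mesangial cells, against 7.09% of all transcript clusters, 16 of 129 between podocytes and endothelial cells, against 10.5%, and 17 of 129 between mesangial and endothelial cells, against 9.16%. In arrays labelled mutant the counts were 11 of 137 (background 8.86%), 14 of 137 (background 13.6%) and 15 of 137 (background 10.1%). The shares of the members lay near the background throughout. *Slc35a5*, a carrier of nucleotide sugars, was called in both wild type contrasts with endothelial cells, 2.82-fold higher in podocytes (adjusted p = 0.000419) and 2.68-fold higher in mesangial cells (adjusted p = 0.000705). Among the members called in 1 wild type contrast only, *Slc35d1*, of the same family, was 2.29-fold higher in podocytes than in endothelial cells (adjusted p = 3.29e-05). *Slc20a1*, a phosphate transporter, was 2.34-fold higher in endothelial than in mesangial cells (adjusted p = 0.00129), and *Slc2a1*, the glucose transporter GLUT1, at least 1.98-fold, or 2.54-fold as fitted, higher in mesangial than in endothelial cells (adjusted p = 7.26e-05). These 4 were picked after their values were seen.

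The promoters of members with a sharp pattern are shown to set the base composition beside the signal. Each runs from 250 bases before to 50 bases after a RefSeq start on GRCm38.p6, all on the minus strand, printed 5′ to 3′ with capitals for the searched motifs. They are *Slc41a2* for podocytes (chr10:83337768-83338067), *Slc7a8* for mesangial cells (chr14:54781837-54782136), *Slc26a10* for endothelial cells (chr10:127180533-127180832) and *Slc38a2*, whose signal rose in mesangial cells labelled mutant (chr15:96699679-96699978).
Slc41a2: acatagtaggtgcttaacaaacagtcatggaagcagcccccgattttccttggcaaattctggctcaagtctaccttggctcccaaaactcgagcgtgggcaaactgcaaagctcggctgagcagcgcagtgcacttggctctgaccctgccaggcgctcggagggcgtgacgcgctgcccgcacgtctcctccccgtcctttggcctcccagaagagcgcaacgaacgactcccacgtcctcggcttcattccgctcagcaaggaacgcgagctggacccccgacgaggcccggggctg
Slc7a8: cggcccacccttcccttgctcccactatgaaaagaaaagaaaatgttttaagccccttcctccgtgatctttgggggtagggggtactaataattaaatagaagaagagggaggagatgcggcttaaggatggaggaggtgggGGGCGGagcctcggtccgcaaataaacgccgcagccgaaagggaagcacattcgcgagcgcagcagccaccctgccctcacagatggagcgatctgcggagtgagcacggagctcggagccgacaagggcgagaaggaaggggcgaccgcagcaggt
Slc26a10: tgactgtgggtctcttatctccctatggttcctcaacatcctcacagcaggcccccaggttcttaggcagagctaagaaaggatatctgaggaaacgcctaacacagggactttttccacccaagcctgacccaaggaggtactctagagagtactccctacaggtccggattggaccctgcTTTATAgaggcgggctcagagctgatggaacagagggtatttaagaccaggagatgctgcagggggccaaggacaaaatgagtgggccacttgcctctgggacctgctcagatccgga
Slc38a2: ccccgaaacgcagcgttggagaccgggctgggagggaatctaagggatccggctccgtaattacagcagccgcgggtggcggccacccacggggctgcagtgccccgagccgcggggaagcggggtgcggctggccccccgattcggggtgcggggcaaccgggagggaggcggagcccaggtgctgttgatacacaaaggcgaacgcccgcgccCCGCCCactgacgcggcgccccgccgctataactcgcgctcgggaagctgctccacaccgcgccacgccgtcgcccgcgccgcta
Their share of G and C was 61.7%, 58%, 53.7% and 73%. Searched on both strands were a GC box (GGGCGG), an ETS site (CCGGAAG), the response element of C/EBP and ATF factors (TGATGNAAT) and a TATA box (TATAAA), which do not overlap in these letters. Capitals mark 1 GC box each in *Slc7a8* and *Slc38a2* and 1 TATA box in *Slc26a10*, and *Slc41a2* holds none of these letters. Of the 32851 promoters in the RefSeq table, 35.7% hold the GC box, 8.86% the ETS site, 0.965% the C/EBP and ATF element and 13.6% the TATA box. Of the 145 promoters of the 112 members found in the table, 68.97%, 15.9%, 0 and 11.0% do. A match is a description of the sequence and not a bound site.

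Between genotypes, the mesangial cells had the most members past the screen, an unadjusted p under 0.05 from limma, with more than 1.5-fold change in genes that reached the signal minimum in some array of the 6. Of the 114 members tested, 6 were higher in arrays labelled mutant, against 2.08% of all transcript clusters, and 6 were lower, against 3.12%. After Benjamini-Hochberg adjustment over all 11457 transcript clusters tested, 5 members had an adjusted p under 0.05, against 2.92%. The median log2 difference of the members was -0.05, beside -0.02 over all tested. The higher count was 3 without mutant array B, whose leukocyte markers summed to 2273 against 695 and 669 in arrays A and C. The lower count was 2 without wild type array C. The adjusted count was 0 without mutant array A, B or C or wild type array B, and 2 without wild type array A.

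The members past the screen as higher in mesangial cells carry amino acids, nucleobases, steroid sulfates, peptides, ATP with phosphate, and bicarbonate. *Slc38a2*, the amino acid transporter SNAT2 that cells induce when amino acids are scarce, gave 1030.3, 1119.9 and 988 in arrays labelled mutant and 712, 637 and 643 in wild type arrays. The groups did not overlap, and the log2 difference was 0.66 (standard error 0.09, adjusted p = 0.0228). *Slc10a6*, a transporter of steroid sulfates, had 91.2, 139.8 and 96.7 in arrays labelled mutant and 49.6, 49.7 and 46.4 in wild type arrays, a difference of 1.14 (standard error 0.17, adjusted p = 0.025). It reached the signal minimum in mutant array B only, and the wild type values lie in the range of unexpressed genes, so the fitted difference is no measure of its size, and the bound against the minimum is 1.07-fold. It is not tested without mutant array B. Without wild type array C the difference was 0.63 (adjusted p = 0.043) for *Slc38a2* and 1.11 (adjusted p = 0.0459) for *Slc10a6*.

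*Slc43a3* rose from 243, 298 and 463 in wild type to 855, 612 and 879.6 in arrays labelled mutant, by 1.26 (standard error 0.26, adjusted p = 0.0577). The groups did not overlap, and without wild type array C, the highest of its group, the difference was 1.52 (adjusted p = 0.0171). *Slc15a3*, a lysosomal transporter of histidine and small peptides found in macrophages and dendritic cells, had 139, 149.9 and 161 in arrays labelled mutant against 67.1, 82.3 and 109, a difference of 0.83 (standard error 0.18, adjusted p = 0.0627) and, without wild type array C, 1.01 (adjusted p = 0.018). Both wild type arrays then left lie below 100, so that value is no measure of its size. *Slc25a24*, a mitochondrial exchanger of ATP-magnesium and phosphate, had 128, 163 and 151 against 113, 98.4 and 77.9, a difference of 0.62 (standard error 0.16, adjusted p = 0.0949). It ended under 1.5-fold without wild type array C, at 0.47 (adjusted p = 0.144), and without mutant array B, at 0.54. In *Slc15a3* and *Slc25a24* every array labelled mutant lay above every wild type array, but neither passed the adjustment. *Slc4a7* passed the screen with overlap, its values being 449.9, 436 and 314 in arrays labelled mutant and 244, 316 and 235 in wild type arrays, a difference of 0.59 (standard error 0.18, adjusted p = 0.134). It was 0.51 (adjusted p = 0.235) without wild type array C, under 1.5-fold, and it also missed the screen without mutant array A or B or wild type array A, at 0.49, 0.52 and 0.54.

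Lower in mesangial arrays labelled mutant were carriers of neutral amino acids and glucose and a mitochondrial carrier. *Slc7a8* had 176, 107 and 165 in arrays labelled mutant and 280.5, 383 and 359 in wild type arrays, a log2 difference of -1.21 (standard error 0.21, adjusted p = 0.0404). The groups did not overlap, and the gene stayed higher in mesangial cells than in podocytes and endothelial cells of the same genotype. The summed mesangial markers were also lower in these arrays, as given above. *Slc25a35*, a mitochondrial carrier, had 115, 119 and 139 against 172, 197 and 200.1, a difference of -0.61 (standard error 0.11, adjusted p = 0.0418). *Slc2a1* did not reach 1.5-fold but passed the adjustment, with 133, 137 and 136 in arrays labelled mutant against 173, 208 and 217, a difference of -0.55 (standard error 0.11, adjusted p = 0.0472). In both genes the groups did not overlap. Without wild type array C the difference was -1.17 (adjusted p = 0.0741) for *Slc7a8*, -0.57 (adjusted p = 0.0807) for *Slc25a35* and -0.49 (adjusted p = 0.0854) for *Slc2a1*. *Slc25a35* then lay under 1.5-fold, as it did without mutant array A or wild type array B.

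Further members passed the screen as lower, and all 4 of them had their highest wild type value in array C. *Slc16a7*, the monocarboxylate transporter MCT2, gave 80.7, 58.9 and 153 in wild type arrays and 39.3, 39.1 and 38.1 in arrays labelled mutant, a fitted difference of -1.21 (standard error 0.32, adjusted p = 0.098). It reached the signal minimum in that array alone and is not tested without it. The means of both groups lay below 100, so the fitted difference is no measure of its size and no bound is given. *Slc9a3r2*, the scaffold that is bright in podocytes and endothelial cells, had 470.2, 449 and 895 in wild type arrays and 283, 322 and 347 in arrays labelled mutant, a difference of -0.86 (standard error 0.26, adjusted p = 0.138) that was -0.54 (adjusted p = 0.0762) without array C. *Slc39a10*, bright in endothelial cells, had 215, 248 and 344 and 223, 149 and 133, with mutant array A above wild type array A, and a difference of -0.69 (standard error 0.24, adjusted p = 0.173) that became -0.49 (adjusted p = 0.298). *Slc3a1*, a heavy subunit of amino acid exchangers of the proximal tubule, whose transcript cluster carries a second symbol, had 122, 149.98 and 155 in wild type arrays and 65.3, 83.7 and 112 in arrays labelled mutant. The groups did not overlap, the difference was -0.74 (standard error 0.21, adjusted p = 0.111) and without array C it was -0.67 (adjusted p = 0.199). *Slc9a3r2* missed the screen without array C, *Slc39a10* without array C or mutant array B or C, at -0.62 and -0.53 for the mutant arrays, and *Slc3a1* without mutant array A, at -0.55.

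**Figure D3:**
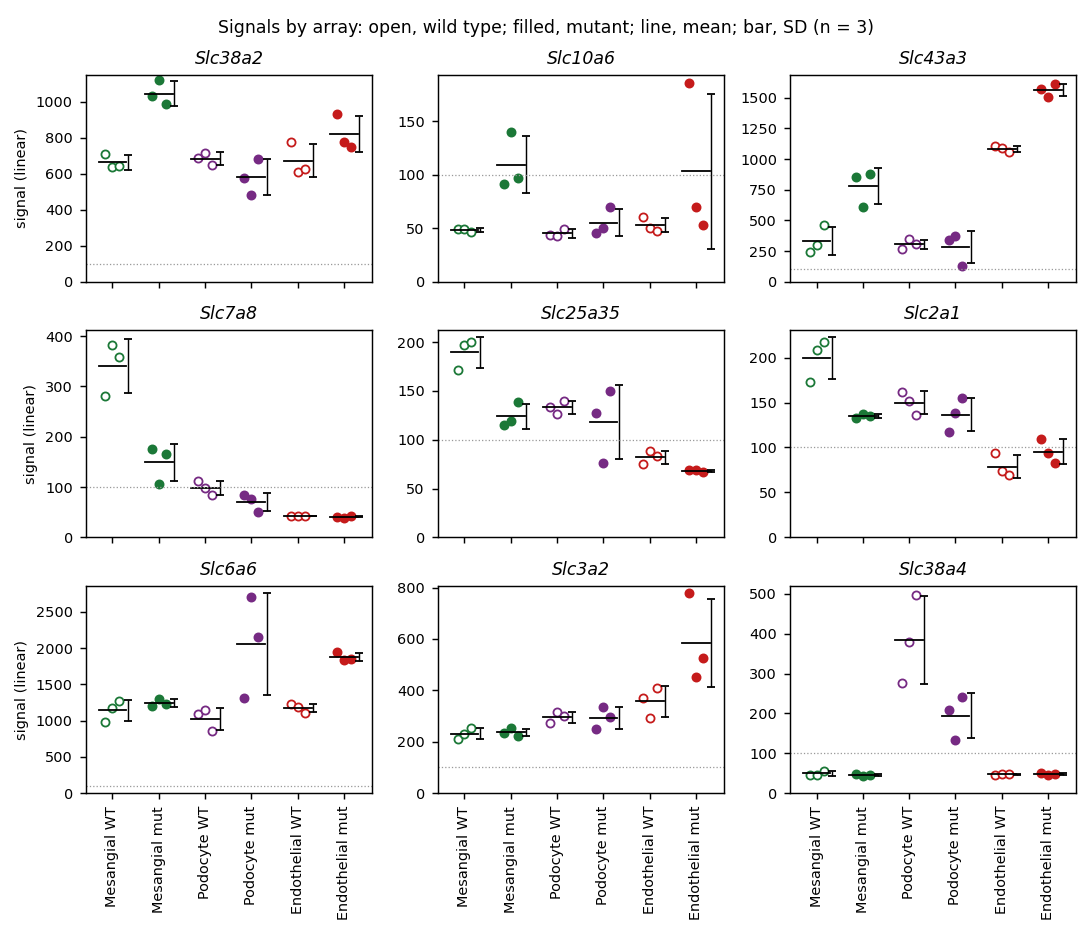
Signal (linear axis from 0) of 9 members in each of the 18 arrays, with open points for wild type and filled points for mutant arrays, a line for the group mean, a bar for the SD (n = 3) and a dotted line at the signal minimum of 100. *Slc38a2* and *Slc10a6* rise in mesangial arrays labelled mutant, *Slc7a8*, *Slc25a35* and *Slc2a1* fall there, and *Slc6a6* rises in podocytes and endothelial cells.

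In podocytes 1 of 127 members tested passed the screen as higher in arrays labelled mutant, against 1.26% of all transcript clusters, and 5 as lower, against 4.34%. After adjustment over 12113 transcript clusters none of the members passed in limma, against 0.0578% of all, while 21 had an unadjusted p under 0.05. With the spread estimated over all 18 arrays, 10 members had an adjusted p under 0.05. The lower count was 9 without mutant array A and 3 without mutant array B or wild type array A or B, and the higher count was 2 without mutant array A or B. Without mutant array A, 2 members passed the adjustment. The median log2 difference was -0.02 for the members and -0.04 for all tested.

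The taurine transporter was the member that rose. *Slc6a6* gave 1307, 2709.9 and 2148 in podocyte arrays labelled mutant and 1088, 1143 and 857 in wild type arrays, a log2 difference of 0.95 (standard error 0.27, adjusted p = 0.21). The groups did not overlap, and mutant array A lay nearest to the wild type arrays. Leaving out 1 array at a time, the difference ran from 0.71 to 1.24 with an adjusted p of 0.03 to 0.516 and stayed past the screen.

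Lower were the podocyte carriers of amino acids and anions, the choline transporter-like proteins and an iron carrier, each past the screen and none after adjustment. *Slc38a4* had 209, 133 and 242 in arrays labelled mutant and 275, 379.5 and 497 in wild type arrays, without overlap, a difference of -0.98 (standard error 0.28, adjusted p = 0.213). *Slc26a7* had 69.1, 53.4 and 112 against 104, 156 and 148, a fitted difference of -0.85 (standard error 0.29, adjusted p = 0.259), with mutant array C inside the wild type range and mutant arrays A and B below the signal minimum, so its size is uncertain. Leaving out 1 array at a time, *Slc38a4* stayed past the screen, at -1.20 to -0.73, while *Slc26a7*, at -1.14 to -0.61, missed it without mutant array A or B or wild type array B or C. *Slc41a2*, the other member of podocytes, did not pass the screen, with 437, 421 and 541 in arrays labelled mutant and a difference of 0.33 (standard error 0.17, adjusted p = 0.423). Whether these 3 podocyte carriers differ in their genotype effect was not tested.

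*Slc44a1* gave 622, 337 and 584 in podocyte arrays labelled mutant and 709.6, 804 and 731 in wild type arrays, a difference of -0.59 (standard error 0.23, adjusted p = 0.325). *Slc44a2* had 186, 192 and 136 and 288, 316 and 229.6, a difference of -0.70 (standard error 0.19, adjusted p = 0.198). Neither gene overlapped between the groups. *Slc44a1* was -0.31 (adjusted p = 0.409) without mutant array B, and missed the screen without that array or any wild type array. *Slc44a2* missed it without mutant array C, at -0.54 (adjusted p = 0.232). In wild type arrays *Slc44a1* is brighter in mesangial cells and *Slc44a2* in endothelial cells than in podocytes, and the summed markers of endothelial cells were lower in the podocyte arrays labelled mutant, with 3108, 1359.7 and 929.8 in arrays A, B and C. Those of mesangial cells were 3716, 3493 and 1510.4, against 3381 to 4301 in wild type arrays, and their part in the 2 genes was not tested. *Slc25a37*, the mitochondrial iron importer mitoferrin-1, had 107, 81.4 and 173 and 236, 194 and 165, a difference of -0.78 (standard error 0.28, adjusted p = 0.285), with mutant array C inside the wild type range. It ran from -1.07 to -0.53 with 1 array left out and missed the screen without mutant array A or B or wild type array A or B. Summed erythroid markers, of cells that use mitoferrin-1 for haem synthesis, were 5481, 802 and 316 in podocyte arrays A, B and C labelled mutant. They were 4068, 3067 and 4046 in wild type arrays A, B and C, and their part in the result was not tested.

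In endothelial cells 2 of 107 members passed the screen as higher in arrays labelled mutant, against 2.96% of all transcript clusters. None was called lower in limma, against 0.865%, while 17 members had an unadjusted p under 0.05 in either direction. After adjustment over 11330 transcript clusters 2 members passed, against 1.29%. The median log2 difference of the members was 0.09 and that of all tested 0.07, and centring each array on its median moved all differences by 0.07. The screen's count was 1 without mutant array A or wild type array B. The adjusted count was 0 without mutant array A or wild type array B or C and 1 without mutant array C, and it was 0 with the spread of all 18 arrays.

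*Slc6a6* rose in endothelial cells as well, with 1941, 1839 and 1855 in arrays labelled mutant and 1225, 1188 and 1109 in wild type arrays, without overlap, and a log2 difference of 0.68 (standard error 0.09, adjusted p = 0.0118). In mesangial cells the gene had 1199.6, 1303 and 1234 and 985, 1177 and 1266, overlapping groups and a difference of 0.13 (standard error 0.11, adjusted p = 0.544). *Slc43a3* had 1573, 1508 and 1610.1 against 1104, 1087 and 1056 in endothelial cells, a small and even rise of 0.53 (standard error 0.08, adjusted p = 0.0247) that stays under 1.5-fold. *Slc3a2*, the heavy chain CD98 that LAT2 and other amino acid exchangers need at the cell surface, gave 778, 452 and 525 in arrays labelled mutant and 369.97, 292 and 409.98 in wild type arrays. The groups did not overlap, mutant array A was the highest, and the difference was 0.69 (standard error 0.21, adjusted p = 0.169), or 0.46 (adjusted p = 0.361) without that array. Summed leukocyte markers were also highest in that array, at 1328 against 917 and 706 in mutant arrays B and C and 606 to 790.1 in wild type arrays, and their part in the result was not tested.

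**Figure D4:**
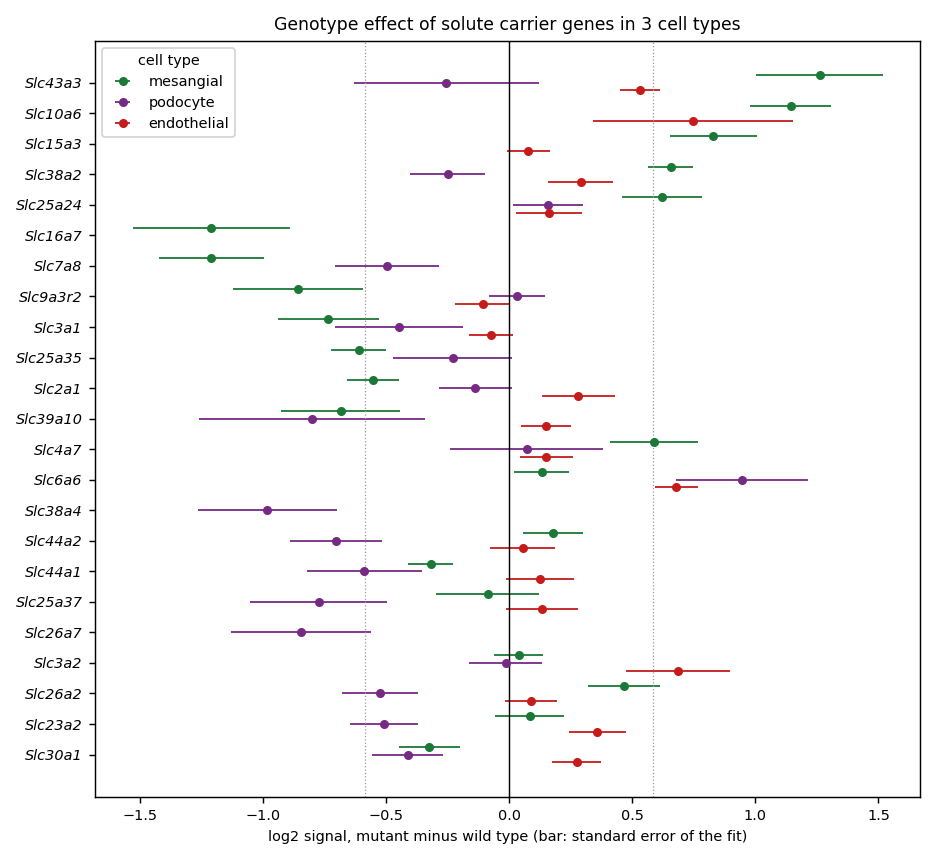
Log2 difference in signal, mutant minus wild type, with its standard error, for the members named in a genotype comparison, in mesangial cells, podocytes and endothelial cells, with dotted lines at 1.5-fold. A missing point means that the gene stayed below the signal minimum in all 6 arrays of that cell type. *Slc6a6* lies to the right in podocytes and endothelial cells, and *Slc38a2* and *Slc26a2* lie to the right in mesangial cells and to the left in podocytes.

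Whether the genotype effect differed between cell types was tested for all 143 members in 1 fit over the 18 arrays and 13523 transcript clusters. Between podocytes and mesangial cells it differed for 2 members, against 0.717% of all transcript clusters. *Slc38a2* gave 578, 483 and 681 in podocytes labelled mutant and 689, 716 and 649 in wild type podocytes, where it was not shown to change (-0.25 (standard error 0.15, adjusted p = 0.489)), and its effect was lower than in mesangial cells with a log2 difference of -0.91 (standard error 0.18, adjusted p = 0.0331). *Slc26a2*, a sulfate transporter needed for proteoglycan sulfation, had 108, 126 and 101 in mesangial cells labelled mutant and 86.6, 66.7 and 90.2 in wild type, but 84.7, 62.8 and 68.8 and 104, 93.5 and 113 in podocytes. In neither cell type did its arrays overlap between genotypes, and the difference of the effects was -0.99 (standard error 0.20, adjusted p = 0.0295), although neither effect passed the screen. All wild type mesangial arrays and all podocyte arrays labelled mutant lay below 100, so the fitted difference is no measure of its size, and the bounds against the minimum are 1.11-fold in mesangial cells and 1.03-fold in podocytes.

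Between endothelial cells and podocytes the effect differed for 2 members, against 2.11%. *Slc23a2*, the vitamin C transporter SVCT2, had 386, 358 and 304 in endothelial cells labelled mutant and 266, 295 and 255 in wild type, and 139, 149 and 169 and 226, 229.9 and 193 in podocytes, a difference of effects of 0.87 (standard error 0.19, adjusted p = 0.0315). *Slc30a1* had 416, 412 and 403 and 368.9, 348 and 305 in endothelial cells and 144, 147 and 179.5 and 186, 221 and 217 in podocytes, a difference of 0.69 (standard error 0.17, adjusted p = 0.0493). In both genes the arrays labelled mutant were all above wild type in endothelial cells and all below it in podocytes. The count depends on the podocyte arrays: it was 22 without mutant array A, 6 without mutant array C and 0 without wild type array A or B. It was also 0 without mutant endothelial array A or wild type endothelial array B or C, and centring each array on its median, which moved all these differences by 0.10, gave 9. Between endothelial and mesangial cells no member passed in limma, against 1.07%, and 23 had an unadjusted p under 0.05. The count between podocytes and mesangial cells was 0 without mutant mesangial array A or B, wild type mesangial array B or wild type podocyte array A or C, and 5 without mutant podocyte array A. It was 1 without mutant endothelial array B, wild type mesangial array A, mutant podocyte array B or wild type podocyte array B.

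By substrate, the 19 members for amino acids, grouped by family number so that *Slc43a3* is counted among them, were *Slc1a5*, *Slc36a4*, *Slc38a1*, *Slc38a10*, *Slc38a2*, *Slc38a4*, *Slc38a6*, *Slc38a7*, *Slc38a9*, *Slc3a1*, *Slc3a2*, *Slc43a3*, *Slc6a20b*, *Slc6a6*, *Slc6a9*, *Slc7a1*, *Slc7a6*, *Slc7a7* and *Slc7a8*. Their signals ran from 39.6 for *Slc38a1* to 2709.9 for *Slc6a6*, and their median log2 difference between genotypes was 0.22 in mesangial cells, -0.02 in podocytes and 0.16 in endothelial cells. Of 14 tested in mesangial cells 2 passed the screen as higher and 2 as lower, of 15 in podocytes 1 and 1, and of 14 in endothelial cells 2 as higher and none as lower. Over all transcript clusters the shares higher and lower were 2.08% and 3.12% in mesangial cells, 1.26% and 4.34% in podocytes and 2.96% and 0.865% in endothelial cells, and the medians -0.02, -0.04 and 0.07 in the same order, beside which each group below is to be read. *Slc7a6*, a light subunit of an amino acid exchanger, lay just under the screen in mesangial cells, at 0.58 (standard error 0.15, adjusted p = 0.0909), and passed it without wild type array C, at 0.64 (unadjusted p = 0.00714 from limma), or mutant array A. *Slc7a1* passed it in podocytes without mutant array A or B, at 0.61 and 0.59.

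The 15 members for sodium, chloride, bicarbonate and protons included *Slc12a2*, *Slc12a3*, *Slc12a4*, *Slc12a9*, *Slc24a6*, *Slc26a10*, *Slc26a2*, *Slc26a7*, *Slc4a3*, *Slc4a7*, *Slc8a1* and *Slc9a8*, with signals of 29.2 for *Slc26a7* to 3460.1 for *Slc12a2*. *Slc24a6* is now named *Slc8b1*. Their median log2 difference was -0.18 in mesangial cells, -0.30 in podocytes and 0.04 in endothelial cells, and 1 of 12 passed the screen as higher in mesangial cells and 1 of 15 as lower in podocytes. Among the 21 members for metals, *Slc39a10* was the only one to pass a genotype screen, in mesangial cells. In podocytes it had 301, 118 and 72.7 in arrays labelled mutant and 268, 257 and 198 in wild type arrays, and passed only without mutant array A, at -1.37 (unadjusted p = 0.000919 from limma) beside -0.80. The 21 were *Slc11a2*, *Slc30a1*, *Slc30a3*, *Slc30a4*, *Slc30a5*, *Slc30a6*, *Slc30a7*, *Slc30a9*, *Slc31a1*, *Slc31a2*, *Slc39a1*, *Slc39a10*, *Slc39a13*, *Slc39a3*, *Slc39a5*, *Slc39a6*, *Slc39a7*, *Slc39a9*, *Slc41a1*, *Slc41a2* and *Slc41a3*, with signals of 40.6 for *Slc41a2* to 724 for *Slc39a10* and median differences of 0.05 in mesangial cells, -0.03 in podocytes and 0.15 in endothelial cells.

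The 28 members of the mitochondrial carrier family, grouped by the number 25 although *Slc25a17* is its peroxisomal carrier, included *Slc25a1*, *Slc25a10*, *Slc25a11*, *Slc25a12*, *Slc25a14*, *Slc25a17*, *Slc25a20*, *Slc25a23*, *Slc25a24*, *Slc25a27*, *Slc25a28*, *Slc25a29*, *Slc25a3*, *Slc25a30*, *Slc25a32*, *Slc25a35*, *Slc25a36*, *Slc25a37*, *Slc25a39*, *Slc25a4*, *Slc25a40*, *Slc25a42*, *Slc25a44*, *Slc25a45*, *Slc25a46*, *Slc25a47* and *Slc25a5*. Their signals ran from 46.8 for *Slc25a23* to 953 for *Slc25a4*, and 11 of them reached 100 in all 18 arrays. *Slc25a24*, *Slc25a35* and *Slc25a37* passed a genotype screen with the array dependence given above, and the median log2 difference was -0.08 in mesangial cells, -0.05 in podocytes and 0.09 in endothelial cells. The 13 nucleotide sugar carriers were *Slc35a1*, *Slc35a2*, *Slc35a3*, *Slc35a4*, *Slc35a5*, *Slc35b1*, *Slc35b2*, *Slc35b3*, *Slc35b4*, *Slc35d1*, *Slc35e1*, *Slc35e2* and *Slc35f5*, with signals of 70.99 for *Slc35a1* to 443 for *Slc35a4*. None of them passed a genotype screen in limma, and their median difference was -0.04 in mesangial cells, -0.08 in podocytes and 0.13 in endothelial cells.

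Of the 8 members for glucose and other sugars, *Slc2a1*, *Slc2a12*, *Slc2a13*, *Slc2a6*, *Slc2a8*, *Slc45a3*, *Slc45a4* and *Slc5a3*, none passed a genotype screen. *Slc2a1* was the one with an adjusted p under 0.05 in mesangial cells. Signals of the transcript clusters used ran from 61.1 for *Slc45a3* to 321 for *Slc5a3*. Those of *Slc5a3* and *Slc2a12* also carry the symbols *Mrps6* and *Tbpl1*, and which gene gives the signal was not tested. Another transcript cluster of *Slc5a3*, with a lower mean, reached 435. The 9 for nucleosides and organic ions, *Slc22a12*, *Slc22a13*, *Slc22a17*, *Slc22a18*, *Slc22a23*, *Slc22a5*, *Slc29a1*, *Slc29a2* and *Slc29a3*, ran from 54.1 for *Slc22a23* to 153 for *Slc29a1*, and none was called between genotypes or cell types. The 5 for lipids and choline were *Slc27a2*, *Slc27a4*, *Slc33a1*, *Slc44a1* and *Slc44a2*, of which *Slc44a1* and *Slc44a2* were lower in podocytes labelled mutant. The 5 in the group for carboxylates were placed by family number and not by the substrate of each gene. They included *Slc13a4*, *Slc16a13*, *Slc16a4* and *Slc16a7*. Of these *Slc16a7* passed a genotype screen, in mesangial cells. *Slc16a4*, *Slc16a7* and *Slc16a13* were also called between cell types in wild type arrays. The 4 in the group named for phosphate and sulfate, placed by family number, were *Slc17a5*, *Slc20a1*, *Slc20a2* and *Slc34a1*. Among them is the sialic acid carrier *Slc17a5*, and none was called between genotypes. The sulfate transporter *Slc26a2* is not in this group but is counted with its family among those for sodium, chloride, bicarbonate and protons. *Slc23a2* and *Slc46a3* were the 2 placed in the group for vitamins, which need not hold every vitamin carrier. The other 10 were *Slc10a3*, *Slc10a3-ubl4*, *Slc10a6*, *Slc10a7*, *Slc15a2*, *Slc15a3*, *Slc37a3*, *Slc48a1*, *Slc5a6* and *Slc6a8*, of which *Slc10a6* and *Slc15a3* passed the screen in mesangial cells. *Slc10a3-ubl4* is a read-through symbol that is read from the transcript cluster of *Ubl4*. The last 4 members, *Slc4a1ap*, *Slc7a6os*, *Slc9a3r1* and *Slc9a3r2*, carry a solute carrier symbol but are not carriers.

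Some members are known from the tubule and were bright in few arrays. *Slc12a3*, the thiazide-sensitive sodium and chloride cotransporter of the distal tubule, gave 58.8, 59.3 and 189 in wild type mesangial arrays and 95.3, 167 and 81.97 in wild type podocyte arrays, and 59.3 to 90.5 in the other 12 arrays. *Slc27a2*, a fatty acid transport protein of the proximal tubule, had 34.4, 32.01 and 168 and 46.3, 111 and 40.6, and 33.04 to 82.4 elsewhere. Only wild type mesangial array C and wild type podocyte array B reached the minimum in these 2 genes. *Slc34a1*, the sodium and phosphate cotransporter of the proximal tubule, was highest in the same arrays, at 151 in podocyte array B and 131 in mesangial array C, but also had 129, 114 and 109.6 in podocytes labelled mutant. Markers of the loop, distal tubule and collecting duct summed to 1625 and 1032 in these 2 arrays and to at most 694 in the other 16. None of the 3 genes passed a genotype screen in limma. Their part in the levels of glomerular cells was not tested.

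**Figure D5:**
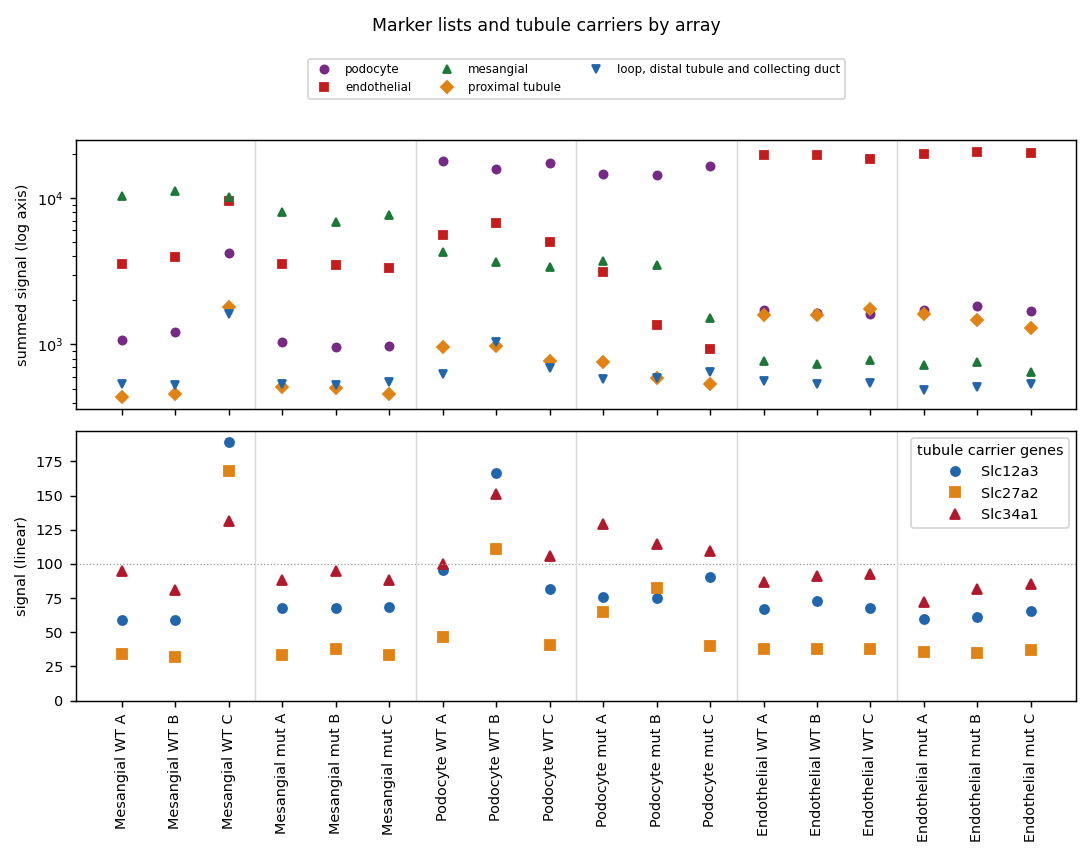
Summed signal of 5 marker lists (log axis, top) and signal of 3 tubule carriers (linear axis from 0, bottom) in each of the 18 arrays, with a dotted line at the signal minimum of 100. Wild type mesangial array C and wild type podocyte array B have the highest *Slc12a3* and *Slc27a2* signals and the highest summed markers of loop, distal tubule and collecting duct. The proximal tubule list is also high in the endothelial arrays, so its sum does not measure tubule content alone.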

How the data were processed

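Signals of 18 arrays, 3 for each of 3 cell types and 2 genotypes, were taken from the table the authors deposited, which holds linear intensity values made by the authors with RMA in Expression Console, per the labels, a method that corrects background, equalises the arrays by quantiles and summarises probes. A further 18 columns of that table, which the authors deposited as log2 values centred on each transcript cluster's median, were not used. RNA had been amplified once with the Nugen Ovation Pico V2 system before hybridization. GeneBASE and Exon ST arrays, named by the series record, appear neither in the file header nor in the methods. Columns were matched to groups by name. Depth does not apply to arrays, and 3 arrays per group limit the precision of every value.

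Log2 signals of the whole table were fitted in limma (version 3.58.1, lmFit and eBayes, under R 4.3.3), after leaving out transcript clusters without a signal of at least 100 in 1 array of the comparison, and p values were adjusted by Benjamini-Hochberg over all of them. Genotypes were compared within a cell type (6 arrays), cell types within wild type and within mutant arrays (9 arrays each) and genotype effects over all 18 arrays. The screen (p under 0.05, fold change over 1.5) has the thresholds the study names for its arrays. The fits were tested on simulated data. Members, groups of substrates, marker lists and the rules were chosen with earlier results of these data known. Named members are the 5 largest rises and falls per cell type past the screen without overlap, every member with an adjusted p under 0.05, those set apart by cell type in both genotypes, those whose genotype effect differed and the 5 brightest per cell type. Screened members with overlap and the tubule carriers are named beside them. Alternatives were a minimum in all 3 arrays of a group, no minimum, all 18 arrays in 1 fit, an intensity trend with robust estimation, centring on array medians, transcript clusters with 1 symbol and leaving out each array. Leaving out wild type mesangial array C for every member was chosen after seeing the data. Gene symbols, chromosomes and promoters came from RefSeq tables on GRCm38.p6, in which all 143 members had a symbol. Values of a few members are not reported here by name and stay in the counts.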

Additional observations from a re-analysis of the deposited data

Results flagged for a closer look

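The genotype effect differed between cell types, by the interaction test of limma over 18 arrays, for 4 of the members. It was lower in podocytes than in mesangial cells for the sulfate transporter *Slc26a2*, with a log2 difference of -0.99 (adjusted p = 0.0295), and for the amino acid transporter *Slc38a2*, at -0.91 (adjusted p = 0.0331). In endothelial cells it was higher than in podocytes for the vitamin C transporter *Slc23a2*, at 0.87 (adjusted p = 0.0315), and for the zinc exporter *Slc30a1*, at 0.69 (adjusted p = 0.0493). For *Slc26a2* the dimmer group of each genotype effect lay wholly below the signal minimum of 100, so its fitted difference is no measure of size. Leaving out 1 array at a time, the values of *Slc26a2* ran from -1.11 to -0.85 with an adjusted p of 0.00602 to 0.0889, and those of *Slc38a2* from -1.03 to -0.78 with an adjusted p of 0.0115 to 0.0954. Those of *Slc23a2* ran from 0.79 to 0.96 with an adjusted p of 0.0189 to 0.0876, and those of *Slc30a1* from 0.61 to 0.79 with an adjusted p of 0.0269 to 0.127. Each of the 4 thus lost its call without some single array.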

How the results depend on the processing

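No named member reversed, in the comparison it is named for, under any alternative run. Over all members signs did turn: without wild type mesangial array C in 11 of 142 members, with log2 differences of up to 0.73 in size as reported, for the genotype effect in podocytes against mesangial cells, in 13 of 142 members, with log2 differences of up to 0.64 in size as reported, for that in endothelial against mesangial cells, and in 8 of 106 members, with log2 differences of up to 0.09 in size as reported, between genotypes in mesangial cells. Without mutant podocyte array B the sign turned in 18 of 125 members, with log2 differences of up to 0.23 in size as reported, between genotypes in podocytes. The 5 members with an adjusted p under 0.05 in mesangial cells became 8 with the minimum in all 3 arrays of a group, 2 with no minimum, 8 with all 18 arrays in 1 fit and 9 with an intensity trend and robust estimation. With all 18 arrays in 1 fit the adjusted count in podocytes became 10 from 0 and that in endothelial cells 0 from 2. The count of members whose genotype effect differed between endothelial and mesangial cells, 0 as reported, was 2 with the stricter minimum, 1 with the trend and 3 with centred arrays, and that between endothelial cells and podocytes, 2 as reported, was 1 with the trend and 9 with centred arrays. A signal minimum of 200 left 62 of the 143 members. Leaving out each array in turn, the counts of members were 3 to 6 higher in mesangial cells, 2 to 7 lower in mesangial cells, 0 to 4 changed in mesangial cells after adjustment, 1 to 2 higher in podocytes, 3 to 9 lower in podocytes, 0 to 2 changed in podocytes after adjustment, 1 to 3 higher in endothelial cells, 0 to 3 changed in endothelial cells after adjustment, 0 to 5 different in effect between podocytes and mesangial cells, 0 to 3 between endothelial and mesangial cells and 0 to 22 between endothelial cells and podocytes. The counts between cell types did not leave 1.5 times their value under any of these. Over the named members and all alternatives, 577 values kept their direction and side of the threshold. A further 66 kept the direction but no longer passed, and 2 newly passed. For genotypes within a cell type the threshold here is the unadjusted screen, so an adjusted p lost on its own does not count as a change. Where a setting changed a count, the cause was not tested, except that fewer arrays leave fewer degrees of freedom. No paired analysis was possible because the numbers in the labels are not shared between the groups and the columns carry none. Limits are the 3 arrays per group, the marker genes of other cells in single arrays, and signals near 100, where background and expression are hard to separate.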

Other observations

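The 12 members that reached a signal of 100 in a single array were mostly near that minimum, with *Slc22a23* and *Slc16a7* further above it. In podocyte array C labelled mutant these were the mitochondrial carriers *Slc25a10*, *Slc25a23*, *Slc25a29*, *Slc25a42* and *Slc25a47*, at 102, 104, 101, 107 and 107. The sixth in podocytes labelled mutant was *Slc45a3*, a sugar transporter family member, at 100.2 in array B. In wild type podocyte array C they were *Slc25a44* at 106 and *Slc41a3* at 101. Endothelial array A labelled mutant held *Slc1a5*, a glutamine transporter, at 115 and *Slc41a1*, a magnesium transporter, at 105. The remaining 2 were *Slc22a23* at 121 in wild type mesangial array A and *Slc16a7* at 153 in array C. The median signal of the members was highest in wild type mesangial array C, at 132.3, and lay between 112 and 126 in the other arrays.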
